A study of Mus musculus with 24 samples.

Results

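The 43 genes described here are neighbours of Setd3 on distal mouse chromosome 12, from Bcl11b (start 107910403) to Crip2 (end 113145506) on GRCm38, and they were chosen by name as non-imprinted genes from Bcl11b on whose levels were low in Setd3 knock-out cells. All 43 were found among the 55401 entries of the count table, and 41 of them were among the 17144 genes with enough counts to be tested. Bcl11b is listed in the table under an older symbol, Rit1, and was matched by its identifier, ENSMUSG00000048251. Degs2, a sphingolipid desaturase, had 72 counts over all libraries, and Btbd6, a BTB domain protein, was at 0 in all 24 libraries. Because the difference between genotypes chose the members, their knock-out to wild-type ratios are given as a description without a p-value. The questions put to them were whether the ratio was like that of 1 copy of 2 at each day, and which genes departed from it.

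The cells were mouse embryonic stem cells of the line CJ9, in an endoderm differentiation followed at days 0, 2, 3 and 4. The groups were Setd3 knock-out cells, a line made with CRISPR-Cas9, at each of the 4 days, and wild-type CJ9 cells at the same days, with 3 libraries in each of the 8 groups. Both genotypes were grown on mitotically inactivated mouse embryonic fibroblasts (feeders) with LIF up to day 0, were then separated from them, and received Activin A from day 2. The knock-out is 1 line, and nothing in the labels says that the replicates were separate cultures, so that p-values measure only the spread between these samples, which may be technical.

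Counts of polyadenylated RNA summed to between 18531390 and 24244958 per library. Setd3 itself, an actin histidine methyltransferase (ENSMUSG00000056770, 108106431 to 108179314, minus strand), had 46.3 ± 3.49 CPM (counts scaled to a common library size) in the knock-out and 122 ± 4.49 CPM in the wild-type at day 0, and was at 38.0%, 31.7%, 26.3% and 24.2% of the wild-type level at days 0, 2, 3 and 4. Markers of naive stem cells (8 genes) summed to 2947 to 3170.0 CPM in knock-out and 2924 to 3117 CPM in wild-type libraries of day 0, with Sox2 listed at 0 in every library. Definitive endoderm markers (8 genes) summed to 71.5 to 179 CPM in knock-out and 1634 to 1886 CPM in wild-type libraries of day 4, and primitive streak markers (6 genes) to 255 to 391 CPM in knock-out and 904 to 1051 CPM in wild-type libraries. Feeder markers (18 genes) summed to 3332, 2338 and 1221 CPM in the knock-out and 1296, 2236 and 1900.0 CPM in the wild-type at day 0, and to at most 229.7 CPM in any later library. S100a4 was the only feeder marker at 0 in a whole group, in the knock-out at day 4 and the wild-type at days 3 and 4, and Cer1 of the endoderm list was at 0 in the knock-out at days 0 and 2.

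Most autosomal genes of a diploid cell are transcribed from both copies of the chromosome, and a gene whose RNA follows its copy number gives, with 1 copy of 2, a ratio of 50%, or -1 on the log2 scale. Genes under strong control by cell type or by feedback can depart from such a ratio. The stretch around Setd3 holds genes of unlike functions: chromatin and transcription (Yy1, Rcor1, Mta1, Bcl11b), translation (Eif5, Wars), chaperones (Hsp90aa1, Bag5), microtubule motors (Dync1h1, Klc1), signalling (Akt1, Traf3, Jag2) and metabolism (Ckb). It encloses the imprinted Dlk1-Dio3 cluster, whose genes are not members. Copy number was not measured in these libraries, so that -1 serves only as a yardstick, and in bulk RNA a smaller share of expressing cells and less RNA per cell cannot be told apart.

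The promoter windows of 5 genes show the kinds of start site that the stretch holds. RefSeq sequences on GRCm38.p6, from 250 bases before to 50 bases after the annotated start, were found for 38 members (not for Wars, Wdr25, Hsp90aa1, Cinp and Brf1) and for Setd3. The windows of Setd3 (chr12:108179235-108179534, minus strand) and its neighbour Ccnk (chr12:108179488-108179787, plus strand) are shown because these genes point away from each other and their windows share 47 bases. Eif5 (chr12:111537851-111538150, plus strand) is shown as a highly expressed member with a small range of ratios, though its ratio too differed between days, as given below. Bcl11b (chr12:108003365-108003664, minus strand) and Ckb (chr12:111672289-111672588, minus strand) are shown as members whose ratio moved more with the day. Capitals mark the CCAAT box, the TATA box letters TATAAA, the heat shock element core GAANNTTC and the YY1 core AANATGGC on either strand, with no overlap between them here.
Setd3: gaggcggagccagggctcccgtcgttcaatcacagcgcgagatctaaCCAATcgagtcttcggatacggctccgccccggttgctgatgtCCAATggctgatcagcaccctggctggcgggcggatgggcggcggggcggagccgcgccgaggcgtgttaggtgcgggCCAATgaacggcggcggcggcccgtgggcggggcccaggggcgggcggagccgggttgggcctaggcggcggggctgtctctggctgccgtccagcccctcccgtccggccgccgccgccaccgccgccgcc
Ccnk: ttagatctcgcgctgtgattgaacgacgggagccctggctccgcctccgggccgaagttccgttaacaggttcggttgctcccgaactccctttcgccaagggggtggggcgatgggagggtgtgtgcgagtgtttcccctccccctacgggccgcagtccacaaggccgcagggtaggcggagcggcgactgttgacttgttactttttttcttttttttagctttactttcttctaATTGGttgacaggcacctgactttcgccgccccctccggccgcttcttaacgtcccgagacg
Eif5: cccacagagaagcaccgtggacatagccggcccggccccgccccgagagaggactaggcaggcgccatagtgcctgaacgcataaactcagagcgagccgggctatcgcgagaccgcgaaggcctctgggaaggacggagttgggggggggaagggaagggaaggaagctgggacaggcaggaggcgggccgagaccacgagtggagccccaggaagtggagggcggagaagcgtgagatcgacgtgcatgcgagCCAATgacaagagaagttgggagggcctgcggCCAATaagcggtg
Bcl11b: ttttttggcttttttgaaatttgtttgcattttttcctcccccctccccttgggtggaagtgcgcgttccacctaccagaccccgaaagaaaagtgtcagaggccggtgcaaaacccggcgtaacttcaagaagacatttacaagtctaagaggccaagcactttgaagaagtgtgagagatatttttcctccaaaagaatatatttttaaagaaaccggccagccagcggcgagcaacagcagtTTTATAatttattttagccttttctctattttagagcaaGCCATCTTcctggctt
Ckb: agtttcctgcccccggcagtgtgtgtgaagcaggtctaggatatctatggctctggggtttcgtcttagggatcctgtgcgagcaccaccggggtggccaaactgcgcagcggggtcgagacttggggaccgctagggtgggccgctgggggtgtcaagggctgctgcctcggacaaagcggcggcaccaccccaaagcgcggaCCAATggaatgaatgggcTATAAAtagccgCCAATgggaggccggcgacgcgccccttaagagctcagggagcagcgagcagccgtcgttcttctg

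Over the 38 member windows the median GC content was 68.33%, against 52.67% over all 32851 RefSeq windows, and 35 windows (92.1%) had a CpG observed over expected of at least 0.6, against 35.8% of all windows. The GC box GGGCGG was found in 30 member windows (78.9%), against 35.7% of all windows, and CCAAT in 17 (44.7%), against 37.4%. TATAAA was found in 2 member windows (5.26%), those of Bcl11b and Ckb, against 13.6% of all windows. AANATGGC was found in 4 (10.5%), those of Bcl11b, Mok, Mark3 and Klc1, against 6.05%, and GAANNTTC in that of Rcor1 alone (2.63%), against 7.86%. All motifs were searched on both strands. These are matches of letters in a window and not sites of binding. Members had 1 window each, while the 32851 windows were not limited to 1 per gene or to tested genes. The shares are therefore not of like sets, and nothing particular to the stretch is read from them.

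The members' RNA was lower in the knock-out at each day, by a like amount. Summed over all members it was 4247 ± 41.3 CPM in the knock-out and 7912 ± 179 CPM in the wild-type at day 0 (SD, n = 3 each), or 53.7% of the wild-type, and 58.7%, 55.1% and 60.0% at days 2, 3 and 4. Without Hsp90aa1, the most abundant member, the shares were 61.2%, 54.0%, 57.6% and 56.9%. The median log2 fold change (knock-out over wild-type) of the 41 members was -0.74, -0.89, -0.92 and -0.92 at days 0, 2, 3 and 4, which is 59.9%, 54.1%, 52.9% and 52.7% of the wild-type level, beside 0.01, -0.01, -0.01 and -0.01 over all 17144 genes. At all 4 days 39 members were below 0, against 19.87% of all genes, and the exceptions were Bcl11b and Tnfaip2.

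A one-copy-like ratio was taken as a log2 fold change between -1.5 and -0.5. At day 0, 33 of 41 members lay in that window, where 11.4% of all tested genes did. At day 2 it held 35 members and 15.3% of all genes, at day 3 33 members and 13.1%, and at day 4 33 members and 15.3%. The ratio itself chose the members, so nothing is read from these counts. The window held 26 members at all 4 days, 7 at 3 days (Cyp46a1, Ppp1r13b, Tdrd9, Akt1, Cep170b, Brf1 and Crip2), 3 at 2 days (Slc25a29, Mok and Ckb), 3 at 1 day (Bcl11b, Inf2 and Jag2) and 2 at none (Eml1 and Tnfaip2).

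The median level at day 0 was closer to 60% than to 50% of the wild-type. The 95% interval of the log2 fold change held -1 for 15, 26, 22 and 15 of the 41 members at days 0, 2, 3 and 4, and lay wholly above -1, towards a smaller loss, for 25, 10, 14 and 16. It lay wholly below -1, towards a larger loss, for 1, 5, 5 and 10. It held -1 at all 4 days for 5 members, Cyp46a1, Begain, Xrcc3, Tdrd9 and Nudt14, which are all under 20 CPM and have wide intervals. Yy1, a precisely measured gene, had an interval of -0.92 to -0.73 at day 0, wholly above -1. Among the 26 members of at least 20 CPM the medians were -0.71, -0.87, -0.85 and -0.81 with an SD over genes of 0.26 to 0.27 at each day. The 15 members under 20 CPM had medians of -0.81, -0.93, -1.26 and -1.23 and an SD that was 0.52, 0.40, 0.48 and 1.22.

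Before the imprinted cluster the members' medians were lower than beyond it at each day, and the difference was not tested. The 11 tested members from Bcl11b to Begain, before the Dlk1-Dio3 cluster, had medians of -0.82, -1.01, -1.07 and -1.09, and the 30 from Ppp2r5c to Crip2, beyond it, -0.68, -0.88, -0.86 and -0.88. The 50 other tested non-imprinted genes from Bcl11b to the end of the chromosome, which are not members, had medians of -0.78, -1.10, -0.97 and -0.98, so that the members are not set apart by their median from what surrounds them. Just before Bcl11b, outside the rule, the ratio had the other sign. Vrk1, a chromatin kinase and the nearest gene of at least 5 CPM before it (106010228 to 106077426, plus strand), was at 1.49, 1.49, 1.40 and 1.67 on the log2 scale, and Bcl11b, the first gene inside, had -2.12, -0.67, -0.44 and 1.04. At the far end Crip2, the last member, had -0.50, -1.03, -0.96 and -1.13, and its neighbour Crip1, which is not a member, had -0.89, -0.71, -0.40 and -2.19. Over the 85 tested genes between 90 Mb and Bcl11b the medians were 1.05, 0.99, 1.07 and 1.03. The plot along the chromosome shows the step next to Setd3 at each day.

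**Figure D1:**
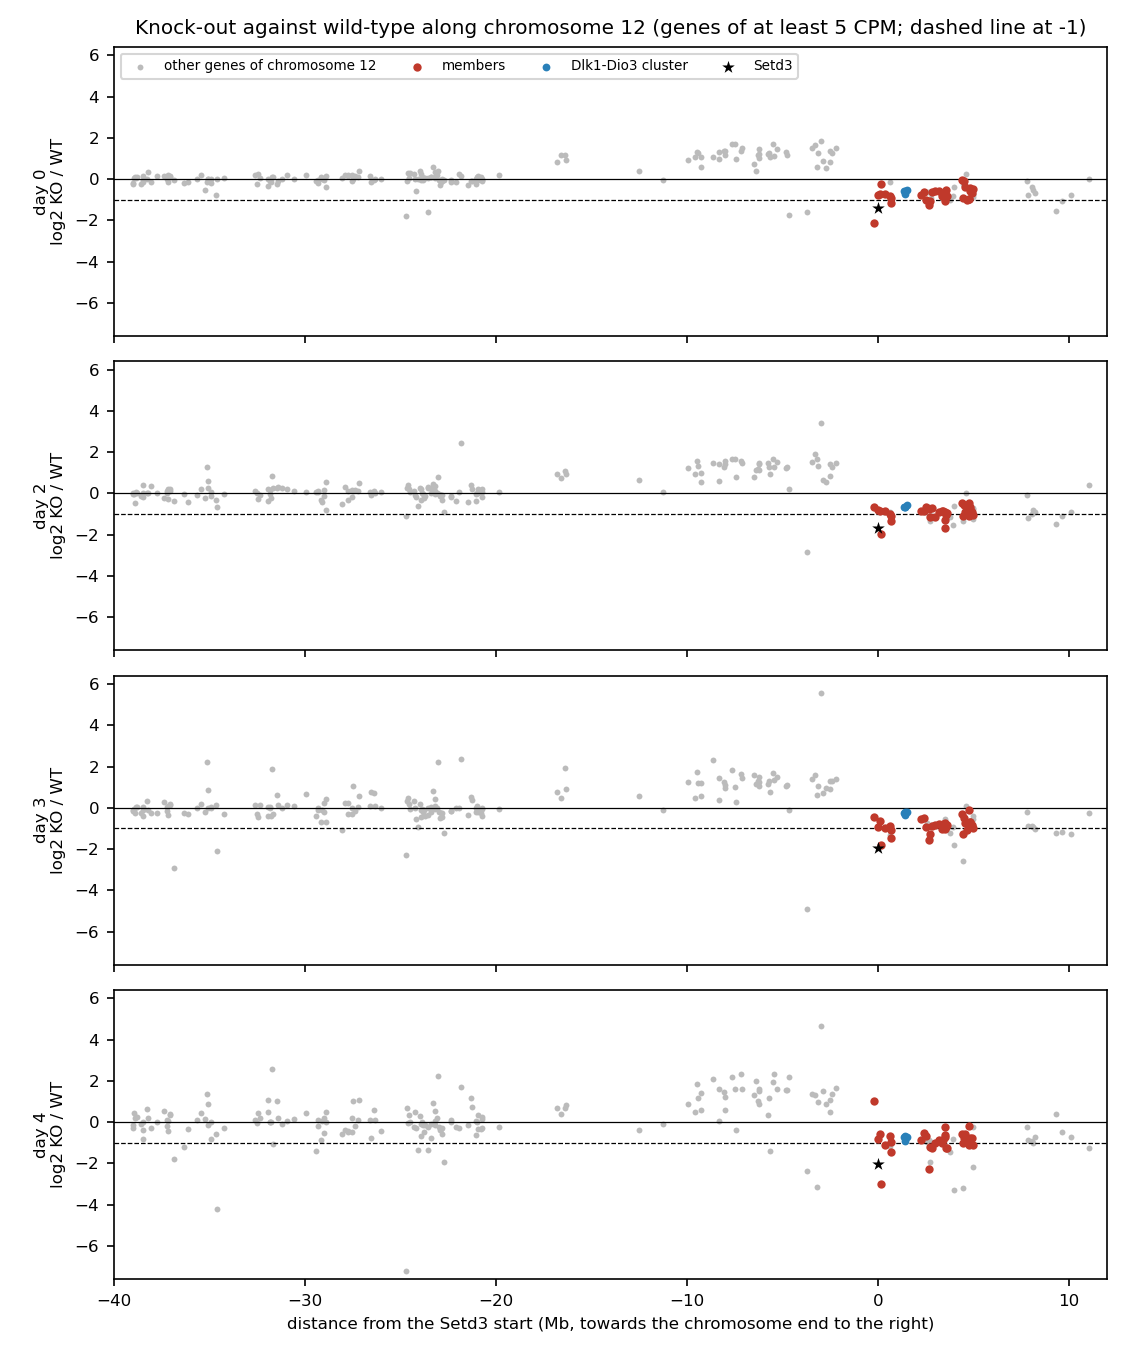
Log2 fold change (knock-out over wild-type, vertical axis) of genes of at least 5 CPM on chromosome 12 against the distance from the Setd3 start in Mb (horizontal axis), with a panel for each day. Members (red) lie around their medians of -0.74, -0.89, -0.92 and -0.92, the genes from 90 Mb to the gap before Setd3 lie around 1, and the dashed line marks -1.

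**Figure D2:**
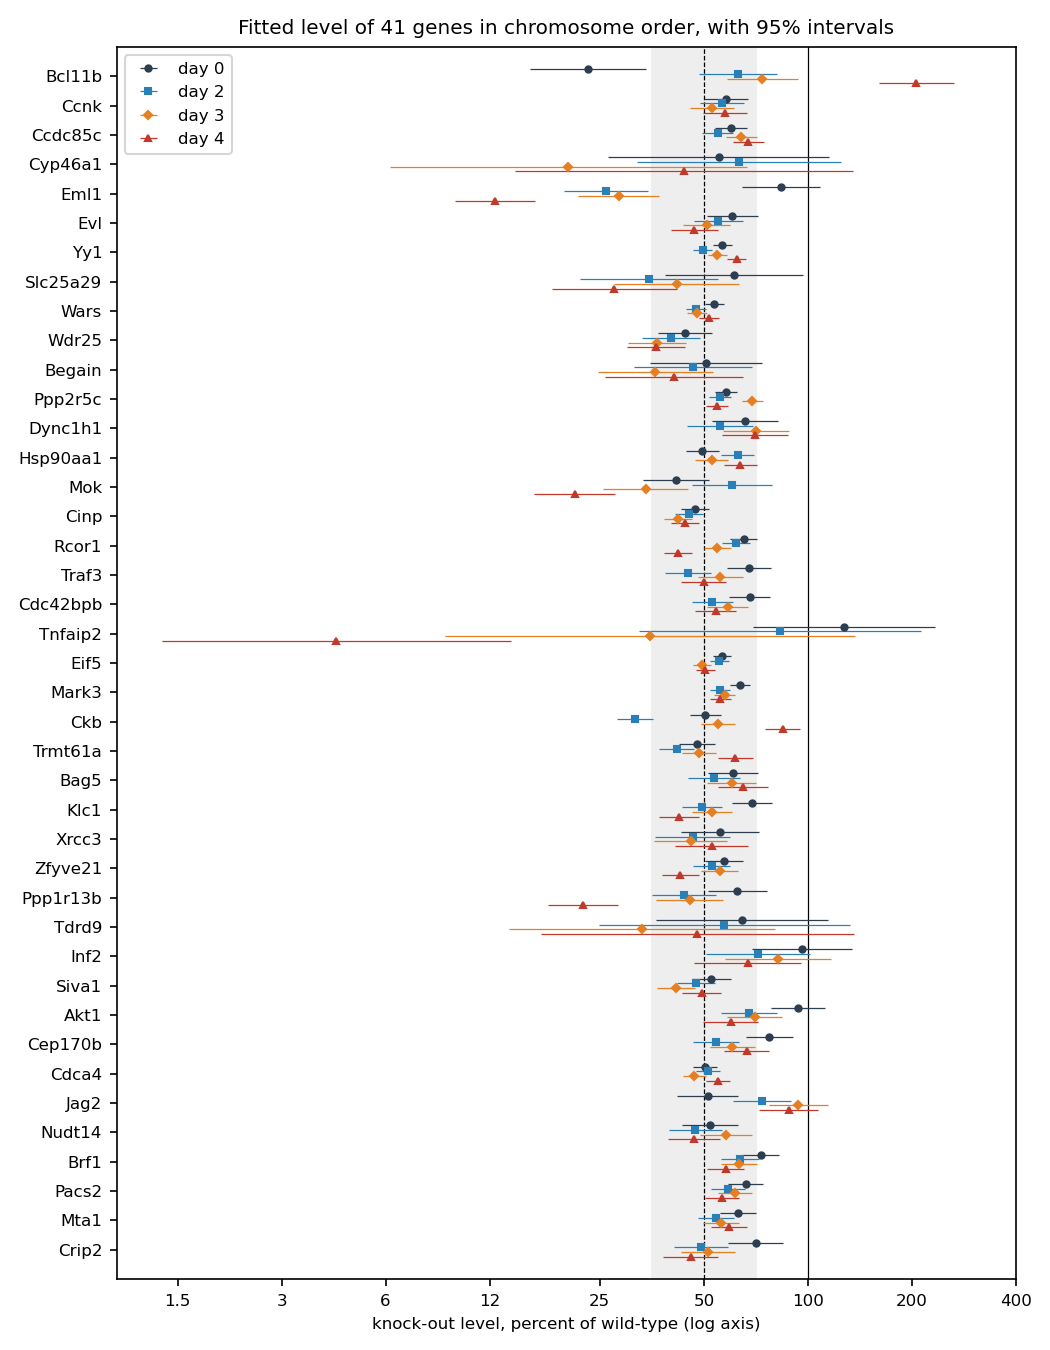
Fitted knock-out level as a percent of wild-type (log axis) for the 41 tested members in chromosome order, with 95% intervals, a symbol for each day and a grey band for the window of -1.5 to -0.5. Most symbols lie in the band near the dashed line at 50%, and those of Bcl11b, Eml1, Slc25a29, Mok, Tnfaip2, Ckb, Inf2 and Jag2 lie outside it at 2 or more days.

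The most abundant members lay in the window at all 4 days. Hsp90aa1, the inducible cytosolic HSP90 chaperone (ENSMUSG00000021270, 110690605 to 110702728, minus strand), had 2389.7, 2508 and 2645 CPM in the knock-out, against 5446, 4837 and 4960.1 CPM in the wild-type, at day 0. At day 4 it had 1390.4, 1711 and 1512 CPM in the knock-out, against 2284, 2518 and 2433 CPM in the wild-type. The groups did not overlap at any day, and the level was lower at day 4 than at day 0 in both genotypes. Its log2 fold changes were -1.01 ± 0.08, -0.68 ± 0.08, -0.92 ± 0.08 and -0.65 ± 0.08 at days 0, 2, 3 and 4 (± is a standard error taken from the F statistic).

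Dync1h1, the heavy chain of the cytoplasmic dynein motor (110601452 to 110666945, plus strand), had 247, 258 and 245 CPM in the knock-out, against 303, 422 and 411 CPM in the wild-type, at day 0. Its wild-type libraries were spread over a wider range than those of the knock-out, with 346, 503 and 531 CPM at day 3. On the log2 scale the ratios were -0.60 ± 0.15, -0.84 ± 0.15, -0.50 ± 0.15 and -0.51 ± 0.15. Eif5, which activates the GTPase step of start codon recognition (111538016 to 111546752, plus strand), had 275, 266 and 276 CPM in the knock-out, against 467, 512 and 493 CPM in the wild-type, at day 2. The knock-out libraries of Eif5 lay between 226 and 283 CPM over all days, and those of the wild-type between 436 and 512 CPM. Its log2 fold changes were -0.82 ± 0.04, -0.85 ± 0.04, -1.02 ± 0.04 and -0.99 ± 0.04.

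Among chromatin and transcription genes, Rcor1 and Bcl11b are described with the members whose ratio differed between days. Yy1, a zinc finger factor that both activates and represses genes (108792973 to 108820148, plus strand), had 111, 111 and 114 CPM in the knock-out, against 197, 204 and 213 CPM in the wild-type, at day 3. Its highest knock-out library of any day, at 116 CPM, lay under its lowest wild-type library, at 179.9 CPM. Mta1, a subunit of the NuRD deacetylase complex (113098278 to 113137206, plus strand), had 73.3, 70.3 and 70.5 CPM in the knock-out, against 97.6, 124 and 119 CPM in the wild-type, at day 0, with no overlap, and fold changes of -0.67, -0.88, -0.83 and -0.76 on the log2 scale. Ccnk, the cyclin partner of the transcriptional kinases Cdk12 and Cdk13 (108179579 to 108203359, plus strand), had -0.79, -0.82, -0.92 and -0.80, the smallest range over days (0.13) of all members. Cdca4, a regulator of transcription and cell division, had -0.99, -0.96, -1.09 and -0.86. Brf1, a subunit of the RNA polymerase III factor TFIIIB, had -0.45, -0.65, -0.66 and -0.79.

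Wars, the cytosolic tryptophanyl-tRNA synthetase (108860030 to 108894174, minus strand), had 68.8, 69.2 and 63.8 CPM in the knock-out, against 125, 128 and 123 CPM in the wild-type, at day 0, and log2 fold changes of -0.90, -1.08, -1.07 and -0.95. Trmt61a, the catalytic subunit of a tRNA methyltransferase, had -1.07, -1.26, -1.05 and -0.70. Cinp, a Cdk2-interacting protein of DNA replication, had -1.08, -1.14, -1.25 and -1.18, the lowest steady ratio among members of at least 20 CPM. Xrcc3, a DNA repair gene, had -0.85, -1.11, -1.13 and -0.92 at 3.25 CPM on average.

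Members of signalling and of the cytoskeleton completed the set. Ppp2r5c, a regulatory subunit of protein phosphatase 2A, had 101, 106 and 99.2 CPM in the knock-out, against 201, 191 and 170.5 CPM in the wild-type, at day 4, with no overlap. Its fold changes were -0.79, -0.84, -0.53 and -0.87 on the log2 scale at days 0, 2, 3 and 4. Mark3, a microtubule affinity-regulating kinase, had -0.65, -0.84, -0.80 and -0.84, and Cdc42bpb, a kinase downstream of Cdc42, had -0.56, -0.92, -0.77 and -0.89. Evl, an actin regulator of the Ena/VASP family, had -0.73, -0.86, -0.97 and -1.09. Siva1, a pro-apoptotic protein, had -0.93, -1.08, -1.27 and -1.02. Per kilobase of exon, the mean level over all libraries ran from 0.0707 CPM for Tdrd9, a helicase of the piRNA pathway, to 732 CPM for Hsp90aa1 among the tested members.

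The remaining members were of low level or of plain ratio. Ccdc85c, a coiled-coil protein, had log2 fold changes of -0.74, -0.87, -0.64 and -0.57, Pacs2, a sorting protein of the secretory pathway, -0.60, -0.77, -0.70 and -0.83, and Bag5, a co-chaperone of Hsp70, -0.72, -0.90, -0.73 and -0.62. Nudt14, a UDP-sugar pyrophosphatase, had -0.94, -1.08, -0.79 and -1.09. Wdr25, a WD repeat protein at 6.08 CPM on average, had -1.18, -1.31, -1.45 and -1.46, and Begain, a protein of brain synapses at 1.83 CPM, -0.98, -1.11, -1.47 and -1.29. Slc25a29, a mitochondrial carrier of basic amino acids, had 1.04, 1.000 and 0.876 CPM in the knock-out, against 3.15, 3.63 and 3.87 CPM in the wild-type, at day 4, with no overlap. Its log2 fold changes were -0.71 ± 0.32, -1.53 ± 0.32, -1.26 ± 0.29 and -1.86 ± 0.29. Cyp46a1, the cholesterol 24-hydroxylase, had 156 counts over all 24 libraries and Tdrd9 had 196, with log2 fold changes of -0.86 ± 0.52, -0.66 ± 0.48, -2.30 ± 0.83 and -1.19 ± 0.79 for Cyp46a1 and -0.63 ± 0.40, -0.81 ± 0.59, -1.60 ± 0.62 and -1.06 ± 0.73 for Tdrd9, and their groups overlapped at days 0, 2 and 4. At day 4 the log2 fold change of Tdrd9 ran from -1.49 without replicate 1 of the wild-type to 0.00072 without its replicate 2, and that of Cyp46a1 from -1.87 without replicate 2 of the knock-out to -0.26 without replicate 3 of the wild-type. Exon bases of 12 members also belong to another annotated gene, up to 13.7% of them for Cdc42bpb. Evl and Degs2 overlap on opposite strands. The sources used here do not say whether counting used strand, and reads of such bases cannot be assigned to either gene.

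**Figure D3:**
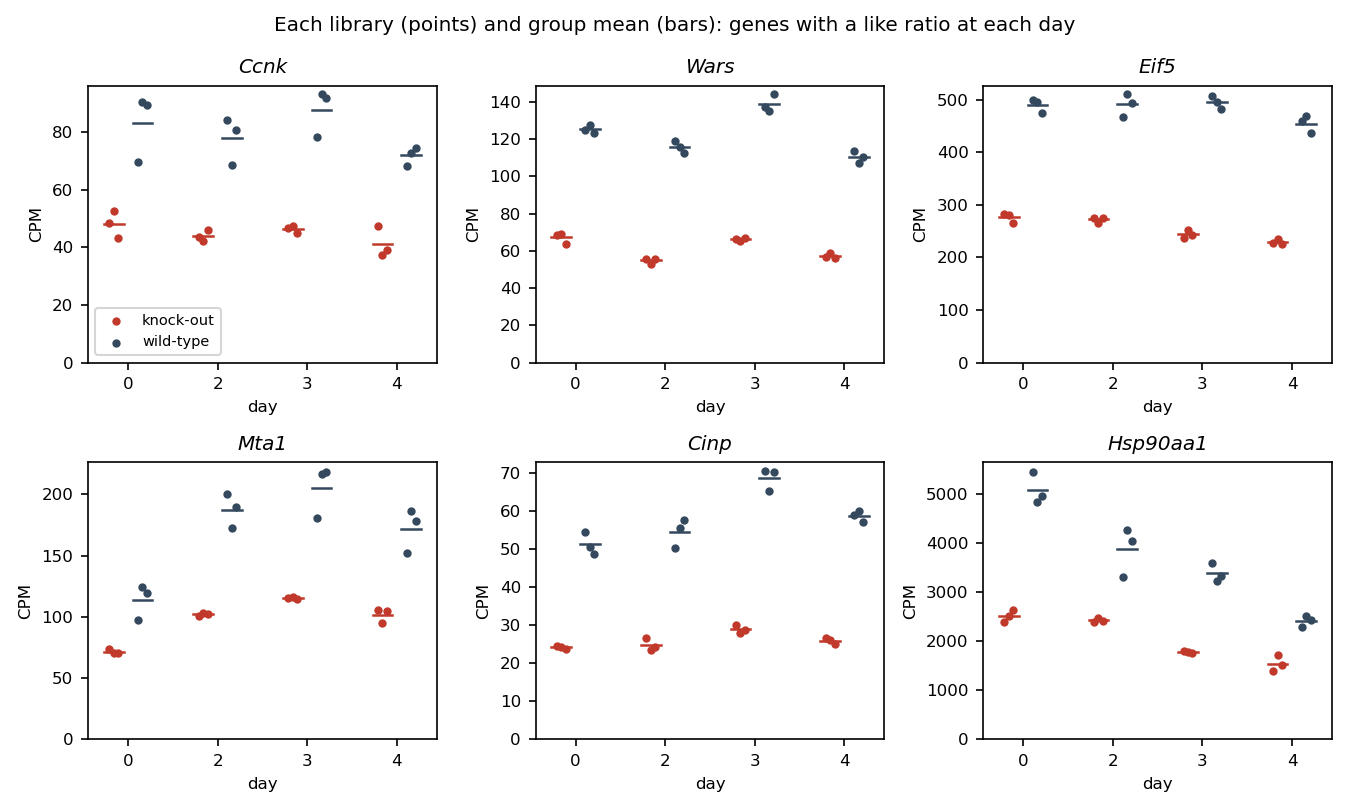
CPM of each library (points) and group means (bars) by day for 6 members whose ratio stayed in the window at all days, knock-out (red) left of wild-type (blue-grey). The knock-out points lie below the wild-type points at every day in each panel, also where both levels differ between days, as for Hsp90aa1 and Mta1.

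Whether the ratio differed between days was tested with an F test on the 3 interaction terms of edgeR's quasi-likelihood fit, with Benjamini-Hochberg adjustment over all tested genes. All adjusted p-values below come from that fit. The members were chosen for a low ratio and not for its constancy. The test called 19 of 41 members (46.3%), against 45.3% of all tested genes, so that a ratio that differed between days was about as common among the members as elsewhere. The range of the 4 log2 fold changes had a median of 0.37 among members and 0.64 among all genes, and was under 0.5 for 23 members (56.1%), against 41.84% of all genes. These sets differ in level: 26 of the 41 members reach 20 CPM, and 7334 of the 16480 tested genes off chromosome 12 do. The choice by a low ratio can also narrow the range, so nothing is read from its size. At days 2, 3 and 4 the ratio was lower than at day 0 for 35, 32 and 31 of the 41 members. The median change from day 0 was -0.18, -0.21 and -0.22 on the log2 scale. Of all genes 51.06%, 52.16% and 51.13% were lower than at day 0. These 3 shares rest on the same day 0 libraries, and the shift was not tested for the members as a set. The difference between days 2 and 0 was called for 6 members, against 7.34% of all genes, with 5 lower and 1 higher at day 2. Between days 3 and 0 it was called for 7 members, against 19.1% of all genes, with 4 lower and 3 higher, and between days 4 and 0 for 19, against 36.7%, with 14 lower and 5 higher.

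These counts moved with single libraries. The count for day 2 was 12 without replicate 3 of the knock-out at day 0, and 3 without replicate 1 of either genotype at day 2. That for day 3 was 4 without replicate 1 or 2 of the knock-out at day 0, replicate 1 of the knock-out at day 2 or replicate 3 of the knock-out at day 3.

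Bcl11b, a zinc finger transcription factor known from T cell development and neurons (107910403 to 108003602, minus strand), had the ratio of both signs. It had 0.458, 0.632 and 0.839 CPM in the knock-out, against 2.50, 3.08 and 2.85 CPM in the wild-type, at day 0, and 6.43, 5.20 and 4.89 CPM in the knock-out, against 8.88, 7.48 and 9.90 CPM in the wild-type, at day 2. At day 3 it had 10.5, 11.2 and 10.96 CPM in the knock-out, against 12.5, 16.3 and 15.3 CPM in the wild-type, and at day 4 12.1, 12.7 and 12.5 CPM, against 3.93, 6.19 and 7.92 CPM. The groups did not overlap at any day, with the knock-out below the wild-type up to day 3 and above it at day 4. The log2 fold changes were -2.12 ± 0.27, -0.67 ± 0.18, -0.44 ± 0.17 and 1.04 ± 0.18, and the ratio differed between days (adjusted p = 1.59e-07). The wild-type fell from day 3 to day 4, by a log2 change of -1.29 ± 0.17 (adjusted p = 1.55e-06), while the knock-out changed by 0.19 ± 0.17 (adjusted p = 0.519) over that step. Its paralogue Bcl11a on chromosome 11 was likewise lower in the knock-out at day 0 and higher at day 4, with log2 fold changes of -1.26, 0.84, 0.51 and 2.12.

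Eml1, a microtubule-associated protein needed for spindle orientation in neural progenitors (108370957 to 108539617, plus strand), parted from the window in the other direction. It had 7.99, 6.14 and 4.25 CPM in the knock-out, against 6.13, 8.90 and 6.90 CPM in the wild-type, at day 0, where the groups overlapped. At day 4 it had 3.81, 3.81 and 2.92 CPM in the knock-out, against 31.9, 27.1 and 25.9 CPM in the wild-type, and the groups lay far apart. Its fold changes were -0.26 ± 0.18, -1.94 ± 0.19, -1.82 ± 0.19 and -3.01 ± 0.19 on the log2 scale (adjusted p = 1.08e-07). From day 0 to day 2 the knock-out fell, with a log2 change of -1.02 ± 0.20 (adjusted p = 0.000124), and the wild-type rose, with a log2 change of 0.67 ± 0.18 (adjusted p = 0.00179). From day 3 to day 4 the wild-type rose, with a log2 change of 1.27 ± 0.17 (adjusted p = 8.41e-07), and the knock-out changed by 0.09 ± 0.21 (adjusted p = 0.851).

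Tnfaip2, a gene induced by tumour necrosis factor (111442469 to 111455018, plus strand), had the widest range of ratios. It had 19.95, 14.5 and 6.66 CPM in the knock-out, against 8.54, 13.6 and 10.2 CPM in the wild-type, at day 0, and the groups overlapped at days 0, 2 and 3. At day 4 it had 0.318, 0.0952 and 0 CPM in the knock-out, against 5.46, 2.70 and 2.09 CPM in the wild-type, without overlap. The log2 fold changes were 0.35 ± 0.42, -0.27 ± 0.65, -1.52 ± 0.94 and -4.53 ± 0.80 (adjusted p = 0.00213), and that of day 4 was -5.98 without replicate 1 of the knock-out and -3.98 without replicate 3. Under 2 CPM in all libraries of days 2 and 3, its ratios there rest on few counts. The wild-type rose from day 3 to day 4, by 2.40 ± 0.61 (adjusted p = 0.00324), and the knock-out changed by -0.62 ± 1.28 (adjusted p = 0.821).

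Ckb, the brain-type creatine kinase (111669361 to 111672338, minus strand), had 84.6, 82.0 and 89.9 CPM in the knock-out, against 154, 175 and 179 CPM in the wild-type, at day 0, and 12.9, 13.5 and 13.9 CPM in the knock-out, against 44.4, 42.1 and 40.9 CPM in the wild-type, at day 2. At day 4 it had 20.5, 19.6 and 20.4 CPM in the knock-out, against 22.2, 27.1 and 22.2 CPM in the wild-type, and the groups came close without overlapping. On the log2 scale the fold changes were -0.99 ± 0.07, -1.66 ± 0.08, -0.86 ± 0.08 and -0.24 ± 0.08 (adjusted p = 1.42e-08). Both genotypes fell from day 0 to day 2, with a log2 change of -2.67 ± 0.08 (adjusted p = 2.32e-18) in the knock-out and -2.00 ± 0.08 (adjusted p = 7.02e-17) in the wild-type. From day 2 to day 3 the knock-out rose, with a log2 change of 0.65 ± 0.09 (adjusted p = 2.75e-06), and the wild-type changed by -0.15 ± 0.08 (adjusted p = 0.133). From day 3 to day 4 the wild-type fell, with a log2 change of -0.69 ± 0.08 (adjusted p = 1.43e-07).

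Mok, a kinase related to MAP kinases (110807798 to 110840939, minus strand), had 8.30, 8.75 and 8.79 CPM in the knock-out, against 20.9, 19.5 and 21.8 CPM in the wild-type, at day 0. At day 4 it had 1.77, 2.00 and 1.31 CPM in the knock-out, against 7.03, 8.06 and 9.05 CPM in the wild-type. The knock-out lay below the wild-type at every day, and the log2 fold changes were -1.27 ± 0.16, -0.73 ± 0.19, -1.56 ± 0.20 and -2.24 ± 0.19 (adjusted p = 0.000462). Ppp1r13b, the p53 cofactor ASPP1 (111828457 to 111908110, minus strand), had 1.27, 1.19 and 1.75 CPM in the knock-out, against 6.74, 5.96 and 6.19 CPM in the wild-type, at day 4. Its log2 fold changes were -0.68 ± 0.14, -1.19 ± 0.15, -1.14 ± 0.16 and -2.16 ± 0.16 (adjusted p = 5.04e-05). From day 3 to day 4 the knock-out fell, with a log2 change of -0.60 ± 0.18 (adjusted p = 0.0284), and the wild-type rose, with a log2 change of 0.43 ± 0.14 (adjusted p = 0.0166).

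Jag2, a ligand of Notch receptors (112907819 to 112929776, minus strand), had 16.2, 20.2 and 27.6 CPM in the knock-out, against 38.6, 44.7 and 41.5 CPM in the wild-type, at day 0, with no overlap. At day 3 it had 32.5, 32.0 and 34.0 CPM in the knock-out, against 31.9, 36.2 and 36.9 CPM in the wild-type, and the groups overlapped there and at day 4. By day, its log2 fold changes came to -0.97 ± 0.14, -0.44 ± 0.13, -0.09 ± 0.14 and -0.19 ± 0.14 (adjusted p = 0.00372). From day 0 to day 2 it rose in both genotypes, with a log2 change of 0.96 ± 0.14 (adjusted p = 3.89e-06) in the knock-out and 0.44 ± 0.13 (adjusted p = 0.00687) in the wild-type. The other Notch ligand on the list of paralogues, Jag1 on chromosome 2, was at 37.8 ± 6.35 CPM in the knock-out and 111 ± 3.62 CPM in the wild-type at day 4, a log2 fold change of -1.55 ± 0.18, adjusted p = 5.83e-07.

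**Figure D4:**
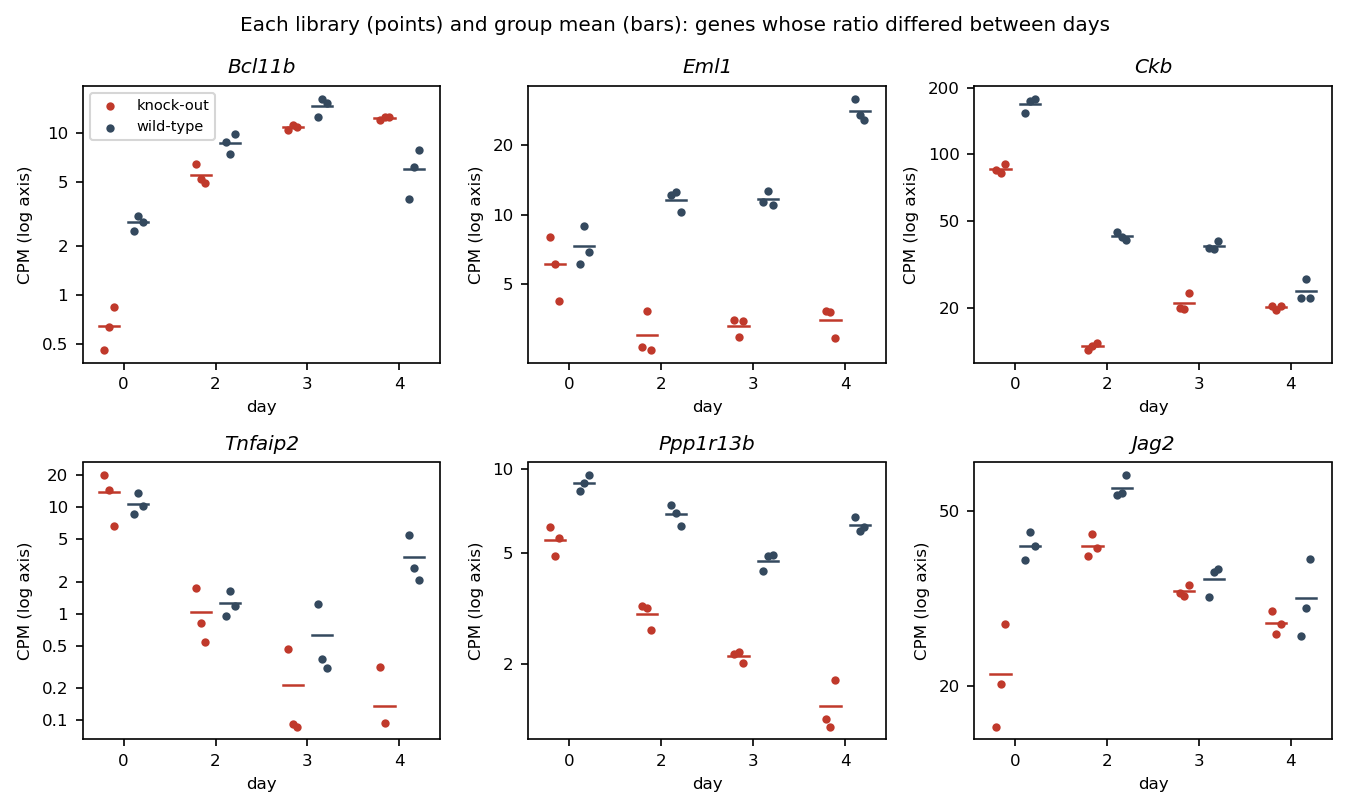
CPM of each library (points) and group means (bars) on a log axis, by day, for 6 members whose ratio differed between days, knock-out (red) left of wild-type (blue-grey). Bcl11b crosses from below to above the wild-type at day 4, Eml1 and Tnfaip2 part widely by day 4, and the groups of Ckb and Jag2 come together. The knock-out library of Tnfaip2 at 0 CPM (day 4, replicate 3) has no point on the log axis.

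Further calls were of smaller size. Klc1, a light chain of the kinesin motor, gave -0.54, -1.02, -0.92 and -1.24 on the log2 scale, by day (adjusted p = 0.000943). Rcor1, the CoREST scaffold of histone demethylation, had -0.62, -0.69, -0.87 and -1.25 (adjusted p = 1.34e-05): the wild-type rose from day 3 to day 4 by 0.47 ± 0.06 (adjusted p = 9.39e-07), and the knock-out changed by 0.09 ± 0.07 (adjusted p = 0.394). Traf3, an adaptor that restrains noncanonical NF-κB signalling, had -0.57, -1.16, -0.84 and -1.001 (adjusted p = 0.0123). Trmt61a was nearer to the wild-type at day 4 than at day 0, by 0.37 ± 0.11 (adjusted p = 0.0128), and its ratio differed between days (adjusted p = 0.00201). Hsp90aa1 was also nearer at day 4, by 0.37 ± 0.11 (adjusted p = 0.011), with adjusted p = 0.016 over the 4 days.

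Small differences were called as well: Ppp2r5c (adjusted p = 0.00112), Yy1 (adjusted p = 0.00149) and Eif5 (adjusted p = 0.0189) stayed in the window at all days with ranges of 0.34, 0.33 and 0.19. Eif5 was not called without replicate 1 of the knock-out at day 2. Zfyve21, a FYVE domain protein (adjusted p = 0.0231), had -0.81, -0.93, -0.85 and -1.23, and was not called without replicate 1 of either genotype or replicate 2 of the wild-type at day 4. Crip2, a LIM domain protein (adjusted p = 0.0271), was not called without replicate 1 or 2 of either genotype at day 0. Akt1, a kinase of insulin and growth factor signalling (adjusted p = 0.0292), was not called without replicate 1 of the knock-out at day 0, replicate 3 of the knock-out at day 4, replicate 1 or 3 of the wild-type at day 0 or replicate 1 of the wild-type at day 4. Cep170b, a centrosomal protein (adjusted p = 0.0408), was lost on leaving out any of 14 libraries. The first 13 genes by adjusted p, from Ckb to Traf3, were called in all 29 alternatives planned. With days 2, 3 and 4 alone, 13 of 40 members differed, 12 of them among the 19, against 42.5% of all genes. Of the first 13 genes by adjusted p, Jag2 and Traf3 were not called without day 0.

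Markers of endoderm and of the primitive streak differed between the genotypes at all 4 days, with day 4 given above. The endoderm sum was 7.22 to 8.91 CPM in knock-out and 15.5 to 22.0 CPM in wild-type libraries of day 0. At day 2 it was 5.50 to 7.03 CPM in knock-out and 20.4 to 37.0 CPM in wild-type libraries. At day 3 it was 8.47 to 10.00 CPM in knock-out and 179 to 512 CPM in wild-type libraries. The streak sum was 54.4 to 63.0 CPM in knock-out and 154 to 194 CPM in wild-type libraries of day 0. At day 2 it was 12.9 to 16.1 CPM in knock-out and 40.3 to 86.6 CPM in wild-type libraries. At day 3 it was 127 to 157 CPM in knock-out and 951 to 1479.5 CPM in wild-type libraries. The part of these marker differences in the ratios of Bcl11b, Eml1, Tnfaip2, Mok, Ppp1r13b and Rcor1 was not tested.

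At day 0 the members nearest to the wild-type had levels that differed between libraries together with the feeder markers. Inf2, a formin that nucleates actin (112588784 to 112615557, plus strand), had 57.4, 46.6 and 27.1 CPM in the knock-out, against 31.9, 53.8 and 50.5 CPM in the wild-type, at day 0, and the feeder sum was 3332, 2338 and 1221 CPM in the same knock-out and 1296, 2236 and 1900.0 CPM in the same wild-type libraries. The day 0 library with the highest level of Inf2 and that with the lowest were both of the knock-out. Among wild-type libraries Inf2 was lowest in replicate 1 also at days 3 and 4 (20.8 and 20.3 CPM), and in replicate 2 at day 2 (28.7 CPM). Its log2 fold changes were -0.06 ± 0.23, -0.48 ± 0.24, -0.29 ± 0.24 and -0.58 ± 0.25, and the ratio was not called as different between days (adjusted p = 0.527). That of day 0 was -0.30 without replicate 1 of the knock-out and 0.19 without replicate 3.

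Akt1 (112653821 to 112674884, minus strand) had 98.3, 74.4 and 56.9 CPM in the knock-out, against 72.2, 91.0 and 82.0 CPM in the wild-type, at day 0. In replicate 3 of the knock-out and replicate 1 of the wild-type, with feeder sums of 1221 and 1296 CPM, Akt1 was at 56.9 CPM in the knock-out and 72.2 CPM in the wild-type. In the same libraries Inf2 was at 27.1 CPM in the knock-out and 31.9 CPM in the wild-type, and Tnfaip2 at 6.66 CPM in the knock-out and 8.54 CPM in the wild-type. In replicate 2 of the knock-out and replicate 2 of the wild-type, with feeder sums of 2338 and 2236 CPM, Akt1 was at 74.4 CPM in the knock-out and 91.0 CPM in the wild-type. There Inf2 was at 46.6 CPM in the knock-out and 53.8 CPM in the wild-type, and Tnfaip2 at 14.5 CPM in the knock-out and 13.6 CPM in the wild-type. Akt1 and Inf2 were lower in the knock-out library of both pairs, and Tnfaip2 was lower in the first pair and higher in the second. The log2 fold changes of Akt1 were -0.10 ± 0.12, -0.56 ± 0.13, -0.51 ± 0.13 and -0.74 ± 0.13, and that of day 0 was -0.31 without replicate 1 of the knock-out and 0.08 without replicate 3. For Tnfaip2 the same values were -0.02 and 0.68, for Eml1 -0.49 and -0.05, and for Crip2 -0.68 and -0.33. Jag2 and Bcl11b went the other way, with -0.80 and -1.19 for Jag2 and -1.93 and -2.34 for Bcl11b. Wars, a member of steady ratio, had 68.8, 69.2 and 63.8 CPM in those knock-out libraries. The part of feeder RNA in the day 0 ratios was not tested.

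**Figure D5:**
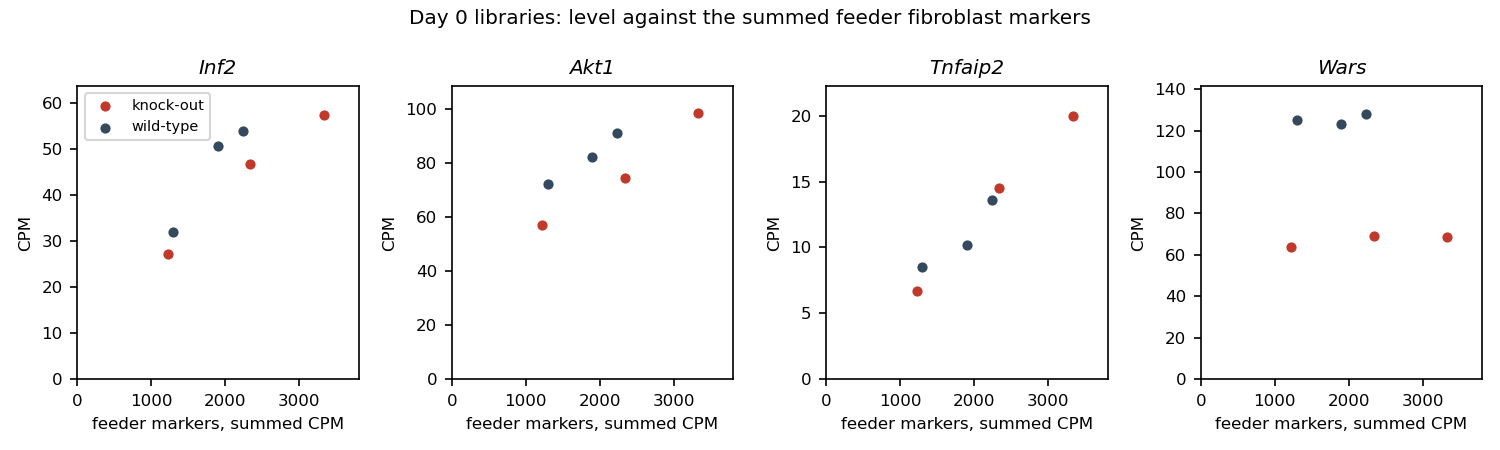
CPM of 4 members (vertical axes) against the summed CPM of 18 feeder fibroblast markers (horizontal axes) in the 3 knock-out (red) and 3 wild-type (blue-grey) libraries of day 0. Inf2, Akt1 and Tnfaip2 are highest in the knock-out library with a feeder sum of 3332 CPM, while Wars lies in separate groups by genotype.

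Levels of the members changed over the differentiation, often in both genotypes. From day 0 to day 2 the test called 24 members in the knock-out, where 60.1% of all genes were called, with 11 higher and 13 lower, and 28 in the wild-type, where 63.8% of all genes were, with 19 higher and 9 lower. Of the 20 called in both, 11 rose in both, 8 fell in both and Eml1 had opposite signs. Mta1 rose, with a log2 change of 0.51 ± 0.09 (adjusted p = 1.74e-05) in the knock-out and 0.72 ± 0.08 (adjusted p = 8.25e-08) in the wild-type. Cep170b rose, with a log2 change of 0.60 ± 0.11 (adjusted p = 5.87e-05) in the knock-out and 1.11 ± 0.11 (adjusted p = 8.3e-09) in the wild-type. Mok fell, with a log2 change of -1.59 ± 0.18 (adjusted p = 3.08e-08) in the knock-out and -2.13 ± 0.16 (adjusted p = 3.86e-11) in the wild-type.

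From day 2 to day 3 the test called 17 members in the knock-out (11 higher, 6 lower; 29.1% of all genes) and 12 in the wild-type (7 higher, 5 lower; 42.4% of all genes), with 9 called in both, 6 of them higher and 3 lower in both. The count of the knock-out was 11 without its replicate 2 of day 2, and that of the wild-type 7 without its replicate 2 of day 2. From day 3 to day 4 it called 3 members in the knock-out, all lower (11.6% of all genes), and 22 in the wild-type, 8 higher and 14 lower (45.5% of all genes). The count of 3 was 1 without replicate 1 or 2 of the knock-out at day 3 or its replicate 1 at day 4. The 3 were Wars, with -0.21 ± 0.05 (adjusted p = 0.00374) in the knock-out and -0.33 ± 0.04 (adjusted p = 1.61e-06) in the wild-type, Trmt61a, with -0.25 ± 0.08 (adjusted p = 0.0467) in the knock-out and -0.60 ± 0.08 (adjusted p = 7.33e-07) in the wild-type, and Ppp1r13b, given above. The difference between genotypes in these counts was not tested for the members as a set.

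Paralogues on other chromosomes were taken for 30 members from a list of named pairs, and 29 of them were tested. Between knock-out and wild-type 9 differed at day 0, against 21.1% of all genes, with 7 higher and 2 lower. At day 2 it was 11 (9 higher, 2 lower), against 32% of all genes, at day 3 13 (10 higher, 3 lower), against 41.2%, and at day 4 19 (13 higher, 6 lower), against 54%. The median log2 fold changes of the paralogues were 0.06, 0.11, 0.05 and 0.12. Genes of at least 20 CPM off chromosome 12 had medians of 0.05, 0.07, 0.03 and 0.07. Of all tested genes 1810 were called higher and 1801 lower at day 0, and 4511 higher and 4740 lower at day 4. The count of paralogues at day 0 was 5 without replicate 2 of the knock-out or replicate 1 of the wild-type at that day. At 2 or more days 15 paralogues were called, 10 of them higher and 4 lower at 2 or more days. The share of all tested genes called at 2 or more days was not counted, so nothing is read from these counts.

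Hsp90ab1, the constitutive HSP90, was at 7373 ± 50.5 CPM in the knock-out and 6321 ± 231 CPM in the wild-type at day 2, a log2 fold change of 0.22 ± 0.03, adjusted p = 1.57e-05, and with Hsp90aa1 added the pair was at 96.1% of the wild-type sum at that day. At days 0, 3 and 4 the pair was at 82.4%, 85.8% and 96.4%, and at day 3 Hsp90ab1 was not called (0.03 ± 0.03, adjusted p = 0.497). The sums of pairs were not tested, and this pair does not stand for the others. Cdc42bpa, the paralogue of Cdc42bpb, was at 61.7 ± 1.02 CPM in the knock-out and 44.2 ± 3.06 CPM in the wild-type at day 2 (0.48 ± 0.07, adjusted p = 1e-05), and was called at all 4 days. Klc2 was at 41.01 ± 2.33 CPM in the knock-out and 26.0 ± 0.776 CPM in the wild-type at day 4 (0.66 ± 0.08, adjusted p = 1.31e-07), where Klc1 was lower. Bag4, a paralogue of Bag5, was at 23.3 ± 1.43 CPM in the knock-out and 17.6 ± 0.612 CPM in the wild-type at day 0 (0.41 ± 0.08, adjusted p = 0.000923). It lies on chromosome 8, which was left out in an alternative scaling given below. Whether its difference is shared along that chromosome was not tested. Ccdc85b, Vasp, Ppp2r5d and Mark2 were higher wherever they were called, at up to 0.40, 0.45, 0.14 and 0.40 on the log2 scale. Slc25a20 was higher at day 2 (0.36 ± 0.08, adjusted p = 0.00172) and lower at day 4 (-0.42 ± 0.08, adjusted p = 0.000117). Sertad2 was higher at day 3 (0.40 ± 0.08, adjusted p = 0.000139) and lower at day 4 (-0.53 ± 0.08, adjusted p = 1.86e-06). Ccnt1 was lower at days 3 and 4, with -0.17 ± 0.05, adjusted p = 0.00443 at day 4. Dync2h1, the dynein of cilia, was lower, with -0.67 ± 0.08, adjusted p = 1.26e-06 at day 2, and so was Fhdc1, the formin listed beside Inf2, with -3.05 ± 0.25, adjusted p = 8.63e-10 at day 4. Traf2, Ppp1r13l, Btbd3 and Pacs1 were not called at any day.

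Imprinted genes lie inside the stretch and are set beside the members as a description. The 6 tested genes of the Dlk1-Dio3 cluster had median log2 fold changes of -0.57, -0.65, -0.23 and -0.70. Meg3, its maternally expressed noncoding RNA, had -0.57, -0.65, -0.25 and -0.70, and Rian -0.56, -0.64, -0.34 and -0.67. Dlk1, a paternally expressed growth regulator, had -0.70, -0.80, -2.30 and -4.68, and Dio3, a thyroid hormone deiodinase with a mean under 1 CPM in each group, had -0.17, -0.68, 0.18 and 1.59. Of these 6 genes, 5, 6, 0 and 4 lay in the window at days 0, 2, 3 and 4. Nothing is read from counts over so few genes.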

How the data were processed

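The submitters' processing notes name Trimmomatic, HISAT2 and the build GRCm38.p6. No counting tool, strand setting or version is given in the sources used here. The authors deposited raw gene counts of 24 libraries, 3 in each of 8 groups, and the samples were grouped by their labels. Genes passing filterByExpr (17144) were fitted with edgeR 4.0.16 in R 4.3.3 (TMM scaling, robust quasi-likelihood fit over all libraries), with Benjamini-Hochberg adjustment over all of them and a threshold of 0.05. CPM were computed here from TMM-scaled library sizes. Coordinates are of GENCODE M21, to which 55141 entries matched. The members, paralogue and marker lists were chosen with earlier results of these data known. Any member could be named. Those given in detail were the 6 of highest mean CPM, those called as day-dependent (by the range of their 4 ratios) and those outside the window at 2 or more days. Paralogues were named if called at 2 or more days, and other genes of the stretch were Setd3 and the Dlk1-Dio3 cluster. Vrk1, Crip1 and the paralogues called at no day were named after their values were seen. Alternatives were DESeq2 1.42.0, its size factors, no filter, only the groups compared, a replicate block and each library left out. The fit was also run on simulated counts with the same spread for all genes and changes set only in the knock-out at day 4. That setting is simpler than these data, so nothing about the results here is read from it.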

Additional observations from a re-analysis of the deposited data

Results flagged for a closer look

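For 19 members the difference between knock-out and wild-type itself differed between days. The values in brackets are adjusted p-values of edgeR's quasi-likelihood F test on the 3 interaction terms. Members whose loss was larger at day 4 than at day 0 were Eml1 (1.08e-07), Tnfaip2 (0.00213), Ppp1r13b (5.04e-05), Mok (0.000462), Rcor1 (1.34e-05), Klc1 (0.000943), Traf3 (0.0123), Zfyve21 (0.0231), Crip2 (0.0271), Akt1 (0.0292) and Eif5 (0.0189). Members whose level was nearer to or above the wild-type at day 4 were Bcl11b (1.59e-07), Ckb (1.42e-08), Jag2 (0.00372), Trmt61a (0.00201) and Hsp90aa1 (0.016). For Yy1 (0.00149), Ppp2r5c (0.00112) and Cep170b (0.0408) the difference of day 4 from day 0 alone was not called, with log2 values of 0.14 ± 0.06 (adjusted p = 0.089), -0.09 ± 0.07 (adjusted p = 0.353) and -0.22 ± 0.15 (adjusted p = 0.271). Markers of endoderm and primitive streak differed between the genotypes at all 4 days, and feeder markers differed between libraries at day 0. Their part in these differences was not tested.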

How the results depend on the processing

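The count of day-dependent members was 19 with all 24 libraries, 16 to 22 on leaving out 1 library, 19 with DESeq2 and 13 without the filter on low counts. With the replicate number as a block it was 19, and the window held 33, 35, 32 and 33 members at days 0, 2, 3 and 4. Over 30 pairs of same-numbered libraries the correlation of deviations ran from -0.30 to 0.39, with 13 over 0.1, and in no comparison of knock-out with wild-type were all 3 over 0.1. In the knock-out between days 3 and 4 all 3 were (0.18, 0.125 and 0.22), and that step was called for 3 members with the block as without it. The block moved no other count by more than 1.5 times. A narrower window, within 0.3 of -1, held 23, 28, 25 and 24 members. The median log2 fold change of the members at day 3 was -0.90 with DESeq2 size factors, -0.88 with the compared groups alone, -0.85 as a ratio of mean CPM + 0.5 and -0.86 for members of at least 5 CPM. At day 4 it was -0.88, -0.84 and -0.85 under the last 3 of these. On leaving out 1 library it ran from -0.95 to -0.87 at day 2, -0.93 to -0.88 at day 3 and -0.94 to -0.86 at day 4. The count of members whose difference at day 3 departed from that of day 0 was 4 with DESeq2 size factors and 4 with the compared groups alone, and on leaving out 1 library 4 to 10, beside 3 to 12 for day 2. The step of the knock-out from day 3 to day 4 was called for 1 member without the filter, for 7 with the compared groups alone, and for 1 to 3 on leaving out 1 library. For the step from day 2 to day 3 those ranges were 11 to 19 in the knock-out and 7 to 13 in the wild-type. Paralogues called at day 0 were 3 with the compared groups alone and 5 to 9 on leaving out 1 library. The cause of these shifts was not tested. No median over the members changed sign under the alternatives run. Among single members, leaving out 1 library changed the sign of Inf2, Akt1 and Tnfaip2 at day 0, Tnfaip2 at day 2 (-0.27 with all libraries and 0.04 without replicate 3 of the knock-out) and Tdrd9 at day 4. Scaling without chromosome 8 and chromosome 12 from 90 Mb put the all-gene medians at 0.0162, 0.00438, -0.00334 and -0.00629. Depth limits Cyp46a1, Tdrd9 and Tnfaip2, whose ratios rest on few counts, and Degs2 and Btbd6, which were not tested. CPM are relative to the library, and copy number, strand and the edited exon are not given here.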

Other observations

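The promoter windows can be set beside the day dependence of the ratio. Of the 8 members whose window lacks a GC box (GGGCGG), which are Bcl11b, Eml1, Mok, Ckb, Trmt61a, Bag5, Tdrd9 and Akt1, 6 were called as day-dependent, and of the 28 tested members whose window holds it 12 were. Both members with TATAAA, Bcl11b and Ckb, and 16 of the 34 tested members without it were called. With CCAAT 7 of 17 were called, and without it 11 of 19. These splits were made after the values were seen and carry no test. Of all tested genes 45.3% were called as day-dependent. The same splits were not made over all genes, so nothing is read from those of the members.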
